A study of Mus musculus with 4 samples.

Results

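Krüppel-like factors are transcription factors that bind GC-rich and CACCC elements through zinc fingers at the carboxyl end of the protein. The 10 genes described here, Klf2, Klf3, Klf4, Klf5, Klf6, Klf7, Klf9, Klf10, Klf11 and Klf13, were chosen by symbol in the deposited table of expression values. Each stood on 1 row of the 23847 rows, and all 10 passed the filter on low values. The samples were bulk RNA-seq libraries of mouse back-skin epidermis at postnatal day 20, 2 labelled WT (Irx5+/+) and 2 labelled Irx5KO (Irx5-/-). All 4 were prepared in the same way, with 2 h in 0.25% trypsin at 34 °C followed by mechanical separation and filtering, so every group carries that dissociation. Irx5 encodes an Iroquois homeodomain protein, and its allele, like the strain, the sex of the mice and any pooling of animals, is left undescribed by the labels. The design text counts n = 2 mice of each genotype.

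The members divide by the partners they recruit. Klf2, Klf4, Klf5, Klf6 and Klf7 mostly act as activators, Klf3 as a repressor that binds CtBP proteins, and Klf9, Klf10, Klf11 and Klf13 as repressors that bind Sin3A. In the epidermis Klf4 is required for the skin barrier and is found in the differentiating layers, Klf5 is found in basal keratinocytes, and Klf9 is a glucocorticoid-induced gene that restrains keratinocyte proliferation. Several members are also transcribed within minutes of serum, growth factor or stress signals.

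Of the 10 factors, 6 fell in Irx5KO, none rose and 4 did not pass the test (limma, Benjamini-Hochberg adjusted over 11643 rows, threshold 0.05). Klf10 fell most, to 23.7% of its WT mean, followed by Klf6 at 31.5%, Klf2 at 33.4%, Klf11 at 47.7%, Klf4 at 51.9% and Klf5 at 62.7%. Among all rows tested, 36.1% were called, 26.9% as higher and 9.22% as lower in Irx5KO. The median log2 fold change was -0.81 over the 10 factors and 0.26 over all rows, and scaling by the median of ratios brought the latter to 0.00. Relative to the median of all rows, the 6 changes ran from -0.92 for Klf5 to -2.28 for Klf10. For 7 of the 10 factors both WT libraries lay above both Irx5KO libraries, and for the other 3 the genotypes overlapped. Among all rows 72.3% had separate genotypes, 54.3% with Irx5KO above and 18% with WT above. In a bulk sample, fewer cells of a type and less RNA per cell cannot be told apart.

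The libraries carried the marks of epidermis and also differed in features other than Irx5. Krt5 ranged from 2976 to 4394 FPKM (fragment counts scaled to transcript length and library size) and Krt14 was at 4807 and 5211 FPKM in WT libraries against 1520 and 1576 FPKM in Irx5KO. None of the 6 dermal fibroblast markers exceeded 1.18 FPKM and none of the 6 endothelial markers exceeded 0.982 FPKM in any library. Keratinocyte markers moved with genotype in part. Of 6 basal markers Krt14 fell (-1.69, adjusted p = 0.00439) and Trp63 rose (0.95, adjusted p = 0.00871). Of 6 suprabasal markers Dsc1 and Dsg1a rose and none fell, and of 7 follicle markers Lhx2, Lgr5 and Cd34 rose and Sox9 fell. Their part in the Klf values was not tested. Irx5 measured 17.4 and 16.4 FPKM in WT (replicate 1 first) against 10.01 and 10.08 FPKM in Irx5KO, so the transcript was lower, at 59.5% of the WT mean, but present in both libraries labelled Irx5KO (-0.70, SE 0.162, adjusted p = 0.0117). Irx5KO is used below as that label, since these values do not show loss of the transcript. Without Irx5KO replicate 1 or replicate 2 the change of Irx5 was -0.69 or -0.70 with an adjusted p of 0.103 or 0.0899. Leaving out a library leaves its genotype with 1 sample, which is then assumed to vary like the other genotype's pair, with limma's prior from all rows, here and in every such value below. Xist was at 36.6 and 33.9 FPKM in WT libraries against 0.0606 and 0.0459 FPKM in Irx5KO, and Ddx3y, on the Y chromosome, at up to 0.0260 FPKM in WT libraries against 19.8 and 17.0 FPKM in Irx5KO. Sex and genotype cannot be told apart in these 4 libraries, for the Klf genes as for any other. Of 6 Langerhans cell markers 3 fell, none rose and 3 did not pass. Their summed level was 733 to 1051 FPKM in WT against 346 to 459 FPKM in Irx5KO. H2-Aa and Csf1r, named after their values were seen, were among those that did not pass. H2-Aa overlapped between genotypes (196 and 32.4 FPKM in WT, 17.2 and 36.8 FPKM in Irx5KO). Csf1r was slightly higher in Irx5KO (5.94 and 5.37 FPKM in WT, 6.41 and 6.82 FPKM in Irx5KO). The langerin gene Cd207 stood at 107 and 96.8 FPKM in WT libraries against 10.4 and 15.1 FPKM in Irx5KO, and no marker of the list was at 0 in all libraries. The part of Langerhans cells in the Klf values was not tested. Labels do not say how the animals were related, and p-values measure only the spread between these samples.

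**Figure D1:**
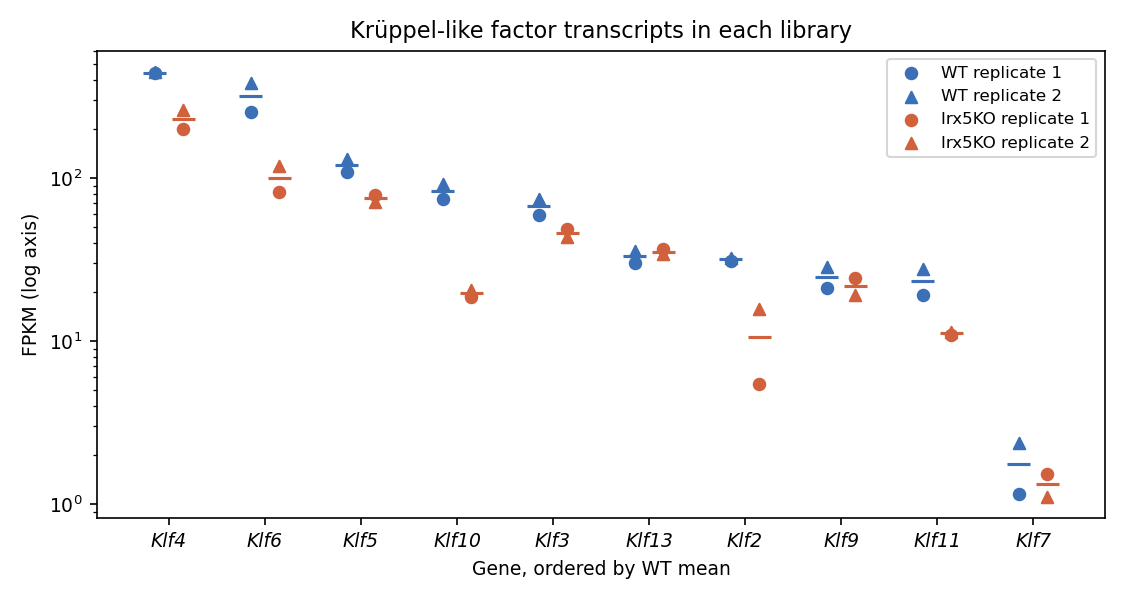
FPKM of the 10 Krüppel-like factors in each library on a log axis, ordered by WT mean, with WT in blue, Irx5KO in orange, circles for replicate 1, triangles for replicate 2 and bars for the mean of n = 2. The genotypes are separate for 7 genes and overlap for Klf7, Klf9 and Klf13.

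Klf4 was the most abundant of the 10 in every library. FPKM is a level per length, so levels can be set side by side between genes: Klf4 exceeded 97.8% to 98.3% of the rows tested, whereas Klf7 exceeded 3.05% to 19.6%. In WT the order was Klf4, Klf6, Klf5, Klf10, Klf3, Klf13, Klf2, Klf9, Klf11 and Klf7. Neighbours in this order had separate WT libraries except for Klf10 and Klf3, for Klf13 and Klf2, and for Klf9 and Klf11, which overlapped. In Irx5KO Klf10 moved from rank 4 to rank 7 and Klf2 from rank 7 to rank 9, and the order became Klf4, Klf6, Klf5, Klf3, Klf13, Klf9, Klf10, Klf11, Klf2 and Klf7. There only Klf9 and Klf10, and Klf11 and Klf2, overlapped as neighbours. Summed over the 10 genes, the level was 1039.5 and 1253 FPKM in WT (replicate 1 first) against 508 and 596 FPKM in Irx5KO. That sum was 0.172% and 0.233% of all FPKM in WT libraries against 0.113% and 0.117% in Irx5KO. The share of Klf4 within the sum overlapped between genotypes, at 42.3% and 35.7% in WT and 39.6% and 43.6% in Irx5KO. Klf6 held 24.4% and 30.4% of it in WT and 16.1% and 19.9% in Irx5KO, without overlap.

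Of the 5 activators 4 fell, and Klf7 did not pass. Klf4, the barrier factor of differentiating keratinocytes, measured 440 and 448 FPKM in WT (replicate 1 first) against 201 and 260 FPKM in Irx5KO. Its WT libraries were close together and well above both libraries labelled Irx5KO (-0.95 on the log2 scale of FPKM + 1, SE 0.225, adjusted p = 0.0121). The call of Klf4 was lost without Irx5KO replicate 1, where the change was -0.77 (adjusted p = 0.142), and under quantile normalization, where the change was -0.40 (adjusted p = 0.0947). The gene lies on chromosome 4 at 55527143 to 55532466, minus strand (mm10, GENCODE M21).

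Klf6, an activator induced on tissue injury, was second in level at 254 and 382 FPKM in WT libraries against 81.9 and 118 FPKM in Irx5KO. Even the lower WT library was above the higher library labelled Irx5KO (-1.65, SE 0.266, adjusted p = 0.00247), and the call held in all 13 alternatives, with changes from -1.33 to -1.95. Klf6 lies on chromosome 13 at 5861482 to 5870394, plus strand. Klf5, a growth-promoting factor of basal epithelial cells, measured 109 and 131 FPKM in WT libraries against 78.7 and 71.8 FPKM in Irx5KO. The libraries were separate by genotype, but this was the smallest of the 6 called changes (-0.66, SE 0.190, adjusted p = 0.0259). The call of Klf5 was lost without WT replicate 2 (-0.53, adjusted p = 0.0656) and without Irx5KO replicate 1 (-0.73, adjusted p = 0.117) or replicate 2 (-0.60, adjusted p = 0.200). It was also lost in TPM (-0.42, adjusted p = 0.0729) and under quantile normalization (-0.47, adjusted p = 0.104). Klf5 is on chromosome 14 at 99298691 to 99315036, plus strand.

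Klf2, best known from endothelium and from quiescent T cells, measured 31.1 and 32.3 FPKM in WT libraries against 5.48 and 15.7 FPKM in Irx5KO. The WT libraries agreed within 1.04-fold, whereas Irx5KO replicate 2 was 2.87-fold above replicate 1, the widest gap between replicates of any of the 10 factors. Its change was -1.65 (SE 0.362, adjusted p = 0.00914) with all libraries, -0.97 without Irx5KO replicate 1 and -2.34 without Irx5KO replicate 2, so the size of its fall depended on which of these libraries was used. Endothelial markers summed to 1.14 and 1.21 FPKM in WT libraries against 0.651 and 1.90 FPKM in Irx5KO. T cell markers summed to 208 and 85.2 FPKM in WT libraries against 130 and 149 FPKM in Irx5KO, and none of the 5 tested was called. The part of endothelial cells and T cells in the Klf2 values was not tested. Klf2 lies on chromosome 8 at 72319033 to 72321656, plus strand, 20.0 Mb from Irx5 (92357625 to 92376286) on the same chromosome. Klf7, known from neurons and the least abundant member, was at 1.15 and 2.37 FPKM in WT libraries against 1.53 and 1.11 FPKM in Irx5KO. Its genotypes overlapped, and the interval of the difference (95%, -0.74 to 0.30) held changes in both directions. Klf7 lies on chromosome 1 at 64029447 to 64122282, and transcripts of the other strand overlap its exons, and whether counting used strand is not stated.

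Among the repressors, Klf10 and Klf11 fell and Klf3, Klf9 and Klf13 did not pass. Klf10, the TGF-beta-inducible early gene, measured 74.3 and 91.7 FPKM in WT libraries against 18.6 and 20.7 FPKM in Irx5KO. No other member had both genotypes so tight relative to the distance between them (-2.02, SE 0.183, adjusted p = 1.42e-04), and the call held in all 13 alternatives, from -1.80 to -2.31. Klf10 lies on chromosome 15 at 38291463 to 38300706, minus strand. Klf11, its closest relative and also TGF-beta-inducible, was at 19.1 and 27.8 FPKM in WT libraries against 10.9 and 11.5 FPKM in Irx5KO (-0.98, SE 0.203, adjusted p = 0.00713). Both libraries labelled Irx5KO were close together and below both WT libraries. Klf11 is on chromosome 12 at 24651274 to 24662789, plus strand.

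Klf3, the CtBP-binding repressor, measured 59.7 and 74.6 FPKM in WT libraries against 48.6 and 43.3 FPKM in Irx5KO. The genotypes were separate, yet the test was just missed (-0.53, SE 0.188, adjusted p = 0.0539, 95% interval -0.96 to -0.11). It was passed under the median of ratios (-0.83, adjusted p = 0.0195), with robust empirical Bayes (0.0498) and without WT replicate 1 (-0.69, adjusted p = 0.0189). Klf3 lies on chromosome 5 at 64803388 to 64832901, where a transcript of the opposite strand overlaps its exons.

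Klf9 and Klf13 overlapped between the genotypes. Klf9 was at 21.1 and 28.4 FPKM in WT libraries against 24.4 and 19.1 FPKM in Irx5KO, with an interval from -0.64 to 0.29 (adjusted p = 0.526). Klf13, a regulator of T cell chemokine expression in other tissues, was at 30.3 and 35.8 FPKM in WT libraries against 36.5 and 34.4 FPKM in Irx5KO, with an interval from -0.29 to 0.50 (adjusted p = 0.663). The sign of both small differences depended on the scaling, turning positive for Klf9 in TPM (0.06) and negative for Klf13 under the median of ratios (-0.19). Klf9 lies on chromosome 19 at 23141226 to 23168134 and Klf13 on chromosome 7 at 63886351 to 63938915.

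**Figure D2:**
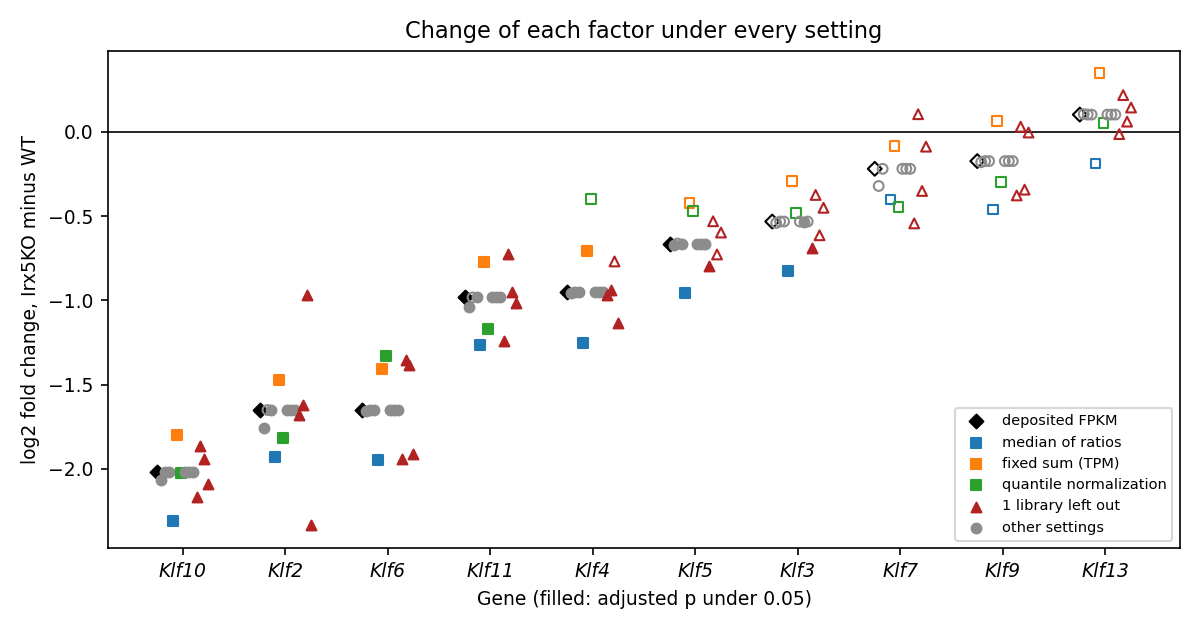
Log2 fold change (Irx5KO minus WT) of each of the 10 factors with the deposited FPKM (diamonds) and under 13 other settings, filled where the adjusted p was under 0.05. Klf10 and Klf6 are filled throughout, Klf5 is open in 6 settings, and the values of Klf7, Klf9 and Klf13 cross 0.

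The remaining members of the family changed in both directions. With these included, 13 of the 17 Klf genes in the table were tested, of which 7 fell, 1 rose and 5 did not pass. The shares of all rows were 9.22% lower and 26.9% higher. Klf15, which like Klf9 is induced by glucocorticoids, was at 1.26 and 0.948 FPKM in WT libraries against 4.80 and 6.13 FPKM in Irx5KO. It was the only Klf gene called as higher (1.62, SE 0.182, adjusted p = 4.66e-04), and this held in the 12 alternatives in which it was tested. Klf16, a further Sin3A-binding repressor, was at 32.3 and 50.8 FPKM in WT libraries against 9.47 and 12.4 FPKM in Irx5KO and fell by 1.81 (adjusted p = 9.30e-04), as it did in all 13 alternatives. Klf8, a relative of Klf3, was at 1.07 and 1.08 FPKM in WT libraries against 1.83 and 1.75 FPKM in Irx5KO and did not pass (0.43, adjusted p = 0.0602). It passed in TPM (0.71, adjusted p = 0.0168) and with the replicate block (adjusted p = 0.0456). Klf1, Klf12, Klf14 and Klf17 were below the filter and were not tested. Of the Sp genes, whose proteins share the zinc fingers of the Klf family, 5 of 9 were tested and 1 rose. Sp3 went from 18.5 and 20.7 FPKM to 41.2 and 36.2 FPKM (0.95, adjusted p = 0.0041). Sp1, the broadly expressed activator, overlapped between genotypes (19.5 and 26.8 FPKM in WT, 22.7 and 17.6 FPKM in Irx5KO). Sp2 (-0.41, adjusted p = 0.0961), Sp4 (-0.04, adjusted p = 0.873) and Sp6 (0.38, adjusted p = 0.15) did not pass.

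**Figure D3:**
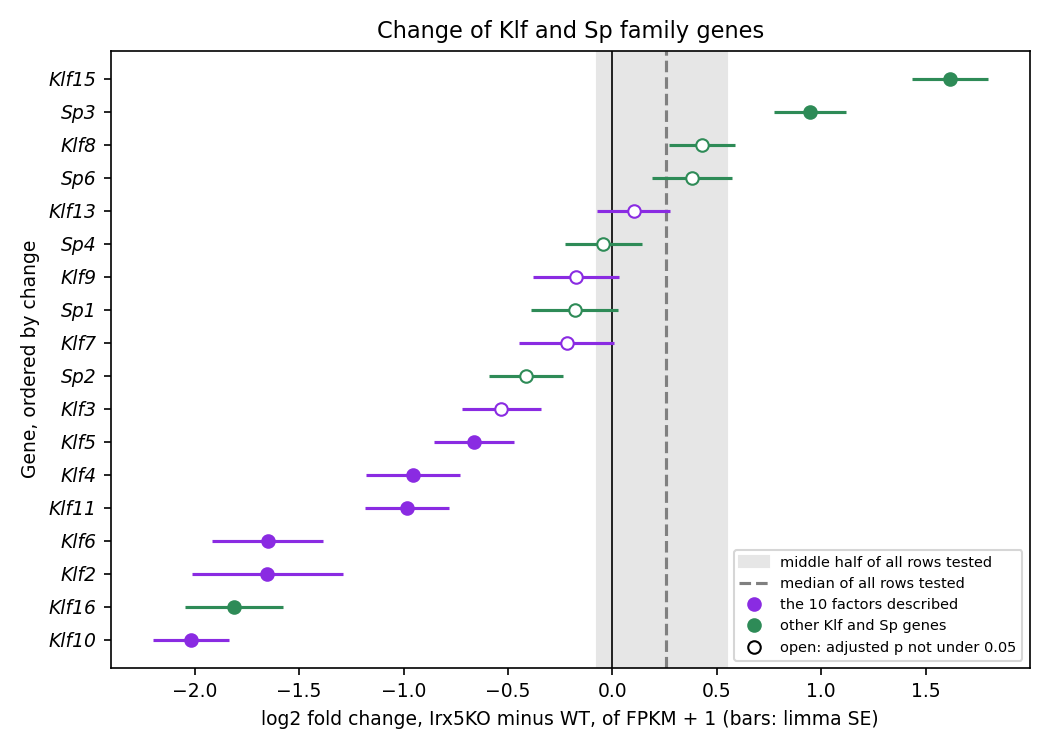
Log2 fold change (Irx5KO minus WT, FPKM + 1) with limma's SE for the 18 Klf and Sp genes tested. The grey band spans the quartiles of all rows tested, from -0.07 to 0.55, and the dashed line their median of 0.26; Klf10 lies lowest at -2.02 and Klf15 highest at 1.62.

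Promoter sequence was examined because several factors were lower together. Windows of 250 bases before the RefSeq start of transcription (GRCm38.p6) were available for 8 of the 10 genes. Klf5 and Klf10, which both fell, had no window, so the motif results below leave them out. They were rich in GC, at 59.2% to 78.4% against a median of 52.4% over 32536 windows of the same length. By the GENCODE M21 positions, which can differ from these starts, the Klf7 window lay within the gene. Those of Klf2, Klf3, Klf6 and Klf11 ran past the start of the gene. Shown are 3 genes that fell and 2 that did not pass, 5′ to 3′ on the strand of the gene, with capitals for TGACG (the short form of the cAMP response element), CACGTG (E-box), TGANTCA (AP-1 site) and the MEF2 site, each on either strand.
Klf2 (chr8:72318812-72319061, plus strand): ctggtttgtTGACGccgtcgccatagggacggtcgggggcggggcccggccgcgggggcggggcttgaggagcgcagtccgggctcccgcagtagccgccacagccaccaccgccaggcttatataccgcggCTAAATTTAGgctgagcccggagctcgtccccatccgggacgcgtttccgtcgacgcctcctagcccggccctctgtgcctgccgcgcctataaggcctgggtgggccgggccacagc
Klf4 (chr4:55532476-55532725, minus strand): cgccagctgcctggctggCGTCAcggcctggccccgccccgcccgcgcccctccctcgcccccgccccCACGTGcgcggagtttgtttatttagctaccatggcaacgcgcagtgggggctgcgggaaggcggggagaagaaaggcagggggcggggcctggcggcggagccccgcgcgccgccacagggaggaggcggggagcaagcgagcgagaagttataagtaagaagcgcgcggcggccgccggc
Klf6 (chr13:5861239-5861488, plus strand): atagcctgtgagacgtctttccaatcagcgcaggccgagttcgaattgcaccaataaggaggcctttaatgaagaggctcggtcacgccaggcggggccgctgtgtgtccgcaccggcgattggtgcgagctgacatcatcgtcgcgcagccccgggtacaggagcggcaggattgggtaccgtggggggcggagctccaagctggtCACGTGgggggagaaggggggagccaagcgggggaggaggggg
Klf9 (chr19:23140976-23141225, plus strand): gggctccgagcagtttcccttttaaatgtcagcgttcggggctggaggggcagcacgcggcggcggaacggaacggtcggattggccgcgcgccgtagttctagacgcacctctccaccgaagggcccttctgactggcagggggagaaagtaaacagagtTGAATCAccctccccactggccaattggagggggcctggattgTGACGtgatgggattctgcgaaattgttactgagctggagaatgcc
Klf13 (chr7:63938916-63939165, minus strand): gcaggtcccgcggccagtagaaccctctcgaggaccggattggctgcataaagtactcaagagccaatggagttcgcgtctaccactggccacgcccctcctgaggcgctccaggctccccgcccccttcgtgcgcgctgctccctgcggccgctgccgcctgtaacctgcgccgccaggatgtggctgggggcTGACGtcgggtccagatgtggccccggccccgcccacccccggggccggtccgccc

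Klf2 was the only one of the 8 with a MEF2 site, which starts at base -118 from the start of transcription and which 0.513% of all windows hold, or 0.255% of the 9816 windows with at least the lowest GC content of the members. TGACG stood in Klf2, Klf4, Klf9 and Klf13, 2 genes that fell and 2 that did not pass, and in 17.9% of all windows, or 26.9% of those GC-rich windows. The E-box stood in Klf4, Klf6 and Klf11, all of which fell, but also in the window of Klf15, which rose, and in 6.04% of all windows, or 9.35% of the GC-rich ones. The AP-1 site was searched as TGANTCA, with any middle base. It was found in Klf9 alone, as TGAATCA from base -89, overlapping a CACCC box by 2 bases. This loose pattern stood in 6.73% of all windows, or 2.94% of the GC-rich ones. No CArG box was found in any of the 8, against 1.48% of all windows and 0.958% of the GC-rich ones. CACCC, the core of the element that Krüppel-like factors bind, stood in 5 of the 8, against 52.1% of all windows and 65.3% of the GC-rich ones. These are matches of letters in one window, and they do not show binding.

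The 6 changes stood beside a broad fall of rapidly induced genes. Of 20 immediate-early genes 18 fell and none rose, with a median of -2.45, where 9.22% of all rows were called as lower. Fosl1, an AP-1 subunit, went from 91.9 and 175 FPKM to 0.221 and 0.190 FPKM, and Myc from 341 and 352 FPKM to 36.1 and 49.6 FPKM. The nuclear receptor gene Nr4a3 fell from 28.5 and 51.3 FPKM to 0.143 and 0.226 FPKM. Its relative Nr4a2 fell from 11.7 and 9.49 FPKM to 0.352 and 0.665 FPKM. Fosl1, Nr4a3 and Nr4a2 passed the filter on low values through the WT libraries alone. In Irx5KO replicate 2, 19 of these 20 genes were above replicate 1, against 52.1% of all rows. Of the 10 factors 5 (50%) were above it, near the share of all rows, namely Klf2, Klf4, Klf6, Klf10 and Klf11. The 5 factors that were below replicate 1 there were Klf3, Klf5, Klf7, Klf9 and Klf13. All 10 factors were higher in WT replicate 2 than in WT replicate 1, as were 37.9% of all rows and 10 of the 20 immediate-early genes.

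Genes of TGF-beta signalling, the pathway that induces Klf10 and Klf11, fell in part. Of 12 genes 5 fell, none rose and 7 did not pass, where 9.22% of all rows were called as lower and 26.9% as higher. The falls included the inhibitor and target genes Smad7 (5.60 and 6.29 FPKM in WT, 1.52 and 1.57 FPKM in Irx5KO), Skil (12.4 and 22.7 against 4.83 and 4.21 FPKM) and Tgif1 (138 and 189 against 39.5 and 44.6 FPKM). The receptors Tgfbr1 and Tgfbr2 and the mediators Smad2, Smad3 and Smad4 did not pass.

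Glucocorticoid-induced genes split, and Klf9 and Klf15 differed in their own values. Of 12 genes, the receptor gene Nr3c1 included, 6 rose and 4 fell, with a median of 0.39. Fkbp5, a chaperone of the glucocorticoid receptor, was at 9.80 and 7.55 FPKM in WT libraries against 59.5 and 80.4 FPKM in Irx5KO, and the glutamine synthetase gene Glul at 75.4 and 47.0 against 234 and 271 FPKM. Ddit4, an inhibitor of mTOR signalling, rose by 1.86 (adjusted p = 8.03e-04), and Errfi1, a feedback inhibitor of the epidermal growth factor receptor, fell by 2.19 (adjusted p = 2.11e-04). Klf9 overlapped between the genotypes while Klf15 was 4.95-fold higher in Irx5KO; the difference between the 2 genes was not tested. Klf9 and Klf10 are also outputs of the circadian clock. Of 16 clock genes tested 5 rose, 3 fell and 8 did not pass. Beside the glucocorticoid and clock counts, 26.9% of all rows were called as higher and 9.22% as lower. Tef was at 12.3 and 14.9 FPKM in WT libraries against 46.4 and 48.8 FPKM in Irx5KO and Per3 at 1.56 and 1.37 against 5.97 and 5.87 FPKM, whereas the repressors Bhlhe40 (157 and 176 against 9.78 and 14.8 FPKM) and Nfil3 (66.1 and 63.4 against 9.97 and 12.7 FPKM) fell. The hour of tissue collection is not given in the sources used here.

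**Figure D4:**
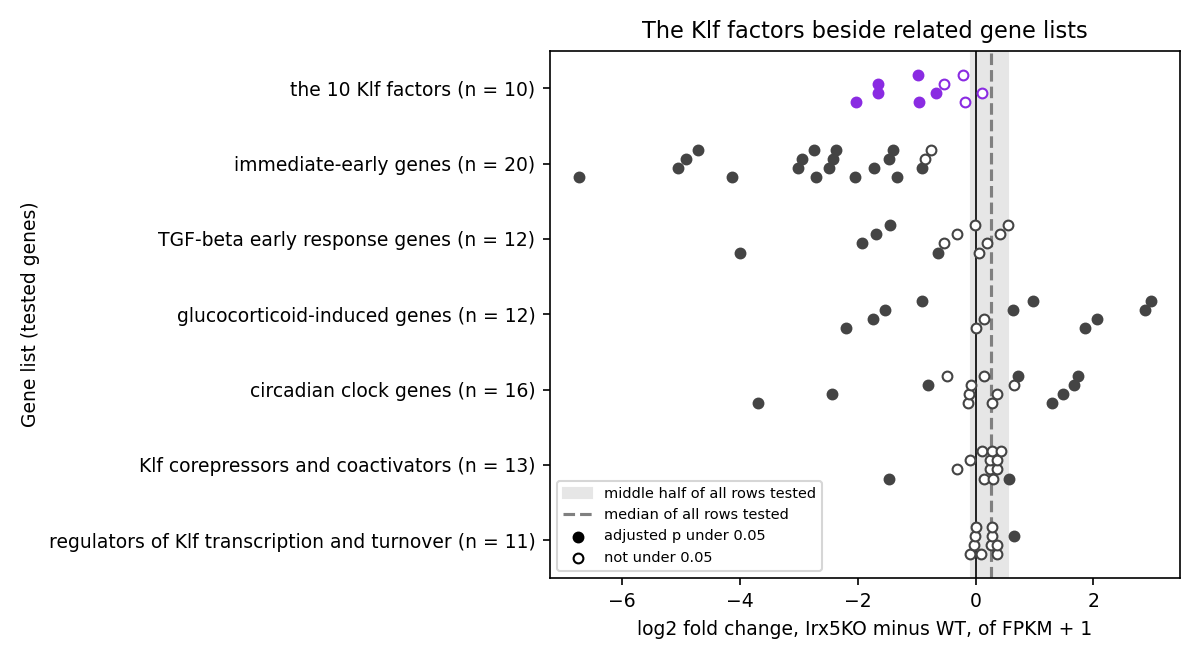
Log2 fold change (Irx5KO minus WT) of the tested genes of each list, 1 point per gene, filled where the adjusted p was under 0.05, with the quartiles (grey) and median (dashed) of all rows tested. The 10 factors lie between -2.02 and 0.10, and 18 of 20 immediate-early genes are filled and below 0.

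The partners and regulators of the family mostly did not pass. Of 13 corepressor and coactivator genes 1 rose, 1 fell and 11 did not pass. Among all rows 26.9% were called as higher and 9.22% as lower. Fhl3, a LIM protein that binds Klf3, went from 7.11 and 8.91 FPKM to 1.85 and 2.67 FPKM (-1.47, adjusted p = 0.001), and the acetyltransferase gene Kat2b from 5.87 and 6.37 to 9.34 and 9.74 FPKM (0.57, adjusted p = 0.0271). The corepressors Ctbp1 (0.29, adjusted p = 0.224) and Sin3a (0.30, adjusted p = 0.173), named after their values were seen, moved close to the median of all rows. Of 11 regulators of Klf transcription and turnover only Map3k3, a kinase upstream of Mapk7, was called, rising from 9.38 and 9.31 to 14.7 and 15.8 FPKM (0.65, adjusted p = 0.0153). Mapk7, the kinase that drives Klf2 and Klf4 transcription in endothelium (0.28, adjusted p = 0.224), its partner Mef2a (0.36, adjusted p = 0.173) and Fbxw7, a ubiquitin ligase subunit (0.37, adjusted p = 0.104), did not pass. Neither list had a gene called as higher under the median of ratios, under quantile normalization or without either Irx5KO library, whereas in TPM 7 partners and 3 regulators were.

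Epidermal genes tied to Klf4 or Klf5 fell more often than they rose. The list gives no direction for the tie, and the part of Klf4 or Klf5 in these changes was not tested. Of 15 tested 7 fell, 2 rose and 6 did not pass, with a median of -0.97. Among all rows 9.22% were called as lower and 26.9% as higher. Krt14, counted above as a basal marker, is among the 7. The cornified envelope precursors Sprr1b (74.5 and 127 FPKM in WT, 0.453 and 0.530 FPKM in Irx5KO), Sprr2h (8.57 and 17.9 against 0.172 and 0.284 FPKM) and Sprr2d (5.81 and 9.20 FPKM in WT, listed at 0 and at 0.263 FPKM in Irx5KO) belong to a family of close copies that can share reads. These Sprr genes passed the filter on low values through the WT libraries alone. Cldn4, a tight junction gene, was at 462 and 778 FPKM in WT libraries against 61.7 and 120 FPKM in Irx5KO. The 2 that rose were the envelope gene Rptn and the cytolinker gene Plec, named after their values were seen.

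Rows were compared by the distance between centred values of log2(FPKM + 1) over the 4 libraries. The nearest of 11127 rows to Klf4 were Tmem158 (0.0689), Gramd3 (0.0711) and Gpr183 (0.0904). Gpr183 was low, at 1.46 and 1.38 FPKM in WT libraries against 0.168 and 0.416 FPKM in Irx5KO, where this scale understates changes. Nearest to Klf5 were Nufip2 (0.0466), Cnksr1 (0.0537) and Gnl2 (0.0603). Klf9 lay nearest to its relative Sp1 (0.0251), followed by Tmem135 (0.0517) and Pcx (0.0581). With 4 libraries such closeness is a description only.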

How the data were processed

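The authors deposited FPKM values, 1 column for each library. The submitters' processing notes name Bowtie2, DESeq2 and the mm10 build. Neither the annotation nor the step to FPKM is given in the sources used here. Counts were not used, so no count model was run. Library depth was chosen so that a large share of low values (up to 10 fragments) became whole, with fragments taken as 200 bases long. At that depth 64.3% to 67.0% of them were whole within 0.1. A fixed depth would give 20% by chance, which is not the chance level for a depth chosen this way. On this estimate 1 FPKM on 2000 bases stands for 94.1 to 108 fragments. FPKM sums ran from 451080 to 603270.

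Rows with at least 1 FPKM in at least 2 of 4 libraries (11643) were tested on log2(FPKM + 1) with limma 3.58.1 (R 4.3.3), intensity trend, 2-sided, Benjamini-Hochberg adjusted over all rows. Fold changes on this scale understate low genes. The smallest exact permutation p of 2 against 2 is 0.333, so none is given. Positions are from GENCODE M21, 1-based, and all 10 members matched. Strand-specific counting is not stated.

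Members, lists and tests were chosen with earlier results of these data known; classes of factors were set after values were seen. Named are the members, tested Klf and Sp genes, up to 4 genes of smallest p per list, sex-linked genes, and the 3 rows nearest to Klf4, Klf5 and Klf9; small RNA, date and duplicated rows were left out of that search. Exceptions are stated, and 1 gene that the rule names is not reported here. The 13 alternatives covered pseudocount, filter, scaling, variance prior, replicate block and each library left out.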

Additional observations from a re-analysis of the deposited data

How the results depend on the processing

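No factor was called as higher under any of the 13 alternatives. The number called as lower was 6 and ran from 4 to 7 with 1 library left out and from 4 to 7 under the other alternatives except 1. With no filter (18467 rows with a value above 0) it was 2, Klf6 and Klf10, where 3.86% of all rows were lower and the lost calls had adjusted p-values from 0.0565 (Klf4) to 0.1 (Klf2). With the replicate block it was 6, the same 6 genes. Deviations of same-numbered libraries correlated at -0.07. With 2 libraries per genotype this is 1 comparison, which cannot show whether same-numbered libraries shared a litter, day or batch.

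Over all rows, 3127 were higher and 1073 lower. The median of ratios gave 1257 and 1611, quantile normalization 1527 and 1304, TPM 5577 higher, a mean of at least 5 FPKM 1898 higher, no filter 1289 and 712, and leaving out 1 library 1457 to 4048 higher. Increases were 74.5% of calls, but 43.8% under the median of ratios, 53.9% under quantile normalization and 86.4% in TPM. Over the genes of all lists other than cell markers, higher calls went from 21 to 35 in TPM. Irx5 did not pass in TPM (-0.48, adjusted p = 0.0577) or without either Irx5KO library, with changes from -0.66 to -0.73 when 1 library was left out.

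Small uncalled changes turned sign. In TPM, Klf9 came to 0.0649, Sp1 to 0.0562 and Sp4 to 0.127, and under the median of ratios Klf13 came to -0.188. With 1 library left out, Klf7 ran from -0.543 to 0.105, Klf9 from -0.377 to 0.0307, Klf13 from -0.0130 to 0.218, Sp1 from -0.401 to 0.0389 and Sp4 from -0.240 to 0.155. The cause was not tested.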
